A study of Rattus norvegicus with 12 samples.

Results

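Neurons answer a burst of activity with a rapid wave of transcription, and the genes described here are effectors in that wave or act beside it. The set held Arc, Nptx2, Npas4, Inhba, Ptgs2, Dusp1, Btg2, Gadd45b, Ier2 and Pim1, taken by gene symbol from the 17494 genes of the count table. The rule uses no measured value, but the set was drawn up with earlier results of these data known. All 10 were found in the table. RNA-seq of hippocampus asked whether boldine, an alkaloid of the boldo tree given in the chow, altered gene expression in rats long after blast exposure.

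All 12 rats were male Long Evans hooded rats, labelled wild type, that were blast-exposed daily for 3 days at 10 weeks of age. The 6 blast-boldine rats (rats 12, 17, 19, 20, 32 and 35) received boldine chow from week 2 after blast, at an intended intake of 25 mg/kg per day, and the 6 blast-control rats (rats 1, 4, 5, 6, 7 and 9) received the same chow without it. Tissue was taken 29 weeks after blast, after the animals had also been through behavioural testing, and one library was made from each animal. The labels call the tissue brain, and the methods name the hippocampus. No sham-exposed rat is in these groups, so the values compare boldine with no boldine in blast-exposed animals and do not measure an effect of blast.

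Depth was 10148474 to 40850106 counts in 11 libraries and 74008 counts in that of blast-control rat 6, where a single count stood for 15.8 CPM, the unit of level used throughout (counts scaled to a common library total with TMM factors). In that library 5 of the 10 genes had no count and 8 had under 3, while the lowest count of any of the 10 genes in the other 11 libraries was 19. The fold changes of the 10 genes are therefore given without rat 6 and with it. The libraries carry numbers 1 to 6, each on 2 libraries, from which 2 sequencing sheets of 6 libraries were inferred. Each sheet was taken to hold every number once, with the rat numbers rising with the library numbers, which left 4 assignments. The one used accounted for 95.4% of the first principal component of 11516 genes. It is inferred, not labelled, and rests on the expression values themselves. Neuronal markers were abundant in all 11 deep libraries, with a summed level of 2965 to 4512 CPM over 7 genes, and the 3 dentate granule neuron markers measured summed to 268 to 374 CPM.

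Activity-induced genes fall into a few roles. Calcium entry and kinase signalling first act on transcription factors already present in the neuron, such as CREB, which binds the cAMP response element (CRE). The induced proteins then act on the nucleus, the synapse and neighbouring cells. Npas4 is itself an activity-dependent transcription factor. Arc removes AMPA-type glutamate receptors from synapses, and Nptx2 is a secreted pentraxin that gathers these receptors at synapses onto interneurons. Inhba encodes the subunit of activin A, and Ptgs2 encodes cyclooxygenase-2, which makes prostaglandins. Dusp1 dephosphorylates and so switches off MAP kinases, Btg2 restrains growth, Gadd45b takes part in stress signalling and DNA demethylation, Pim1 is a serine/threonine kinase, and Ier2 is an immediate early gene of the nucleus. In the hippocampus these genes are known for their brief induction by experience and seizures.

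Proximal promoter sequences were matched by symbol for 9 of the 10 genes in RefSeq (GRCr8). The full CRE, TGACGTCA, was present in the 250 bases upstream of the annotated start of 3 of these 9 genes, Dusp1, Btg2 and Ier2, against 2.88% of the 9872 tested genes that have a promoter entry. They are shown because the same 3 genes are followed together through the rats further on. Each is written 5′ to 3′ in the direction of its gene, ending at the base before the start, with the CRE in capitals.

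Dusp1, chr10:17184603-17184852, plus strand: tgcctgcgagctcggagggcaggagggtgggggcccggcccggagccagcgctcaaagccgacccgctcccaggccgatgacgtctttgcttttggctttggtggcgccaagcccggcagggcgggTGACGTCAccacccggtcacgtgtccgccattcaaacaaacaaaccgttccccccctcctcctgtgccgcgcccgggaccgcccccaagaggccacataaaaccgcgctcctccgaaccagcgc

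Btg2, chr13:48087691-48087940, minus strand: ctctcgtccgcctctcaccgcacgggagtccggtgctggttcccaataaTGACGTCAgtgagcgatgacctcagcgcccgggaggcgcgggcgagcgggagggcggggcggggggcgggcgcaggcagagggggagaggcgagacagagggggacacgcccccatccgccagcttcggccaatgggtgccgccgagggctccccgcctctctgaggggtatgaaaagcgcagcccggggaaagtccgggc

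Ier2, chr19:40399123-40399372, plus strand: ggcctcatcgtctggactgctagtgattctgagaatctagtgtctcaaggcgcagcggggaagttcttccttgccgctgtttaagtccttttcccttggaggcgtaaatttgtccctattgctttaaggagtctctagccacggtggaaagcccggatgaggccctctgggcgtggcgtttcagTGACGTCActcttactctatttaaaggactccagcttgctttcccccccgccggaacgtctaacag

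The CRE began 124 bases upstream in Dusp1, 201 in Btg2 and 66 in Ier2. Its core TGACG, searched on both strands and by its letters part of the full element, was also present in the window of Nptx2, 90 bases upstream, and a further time in Dusp1, 172 bases upstream. It was found in 27.8% of the windows of tested genes. The AP-1 site TGANTCA (4.36% of windows) and the CArG box (1.09%), both searched on both strands, were in none of the 9 windows. A match describes these letters only and does not show that a factor was bound.

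None of the 10 genes differed between blast-boldine and blast-control rats at an adjusted p under 0.05 in edgeR's quasi-likelihood test of all 12 rats, where 0.0% of 12325 genes did. DESeq2 and limma-voom also gave 0 of 10, and the edgeR count was 0 of 10 at an unadjusted p under 0.05, where 1.07% of all genes tested passed. The fitted log2 fold changes of blast-boldine over blast-control ran from -0.24 (Dusp1) to 0.29 (Inhba) with a median of -0.10, beside a median of 0.00 over all genes. They were negative for 7 genes and positive for 3, where 48.7% of all genes were negative. DESeq2 gave the same split, where 59.5% of all genes were negative. The split depended on single rats. It was 5 and 5 once boldine rat 12 was removed. It was 8 negative and 2 positive once boldine rat 17, boldine rat 35 or control rat 7 was removed. The median shifted most on removing control rat 1, which gave -0.16, and control rat 4, which gave -0.056. Without rat 6, Arc alone had an unadjusted p under 0.05, a level that 1.4% of genes reached, and no gene passed adjustment. In bulk tissue, fewer cells of a type and less RNA per cell cannot be told apart.

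**Figure D1:**
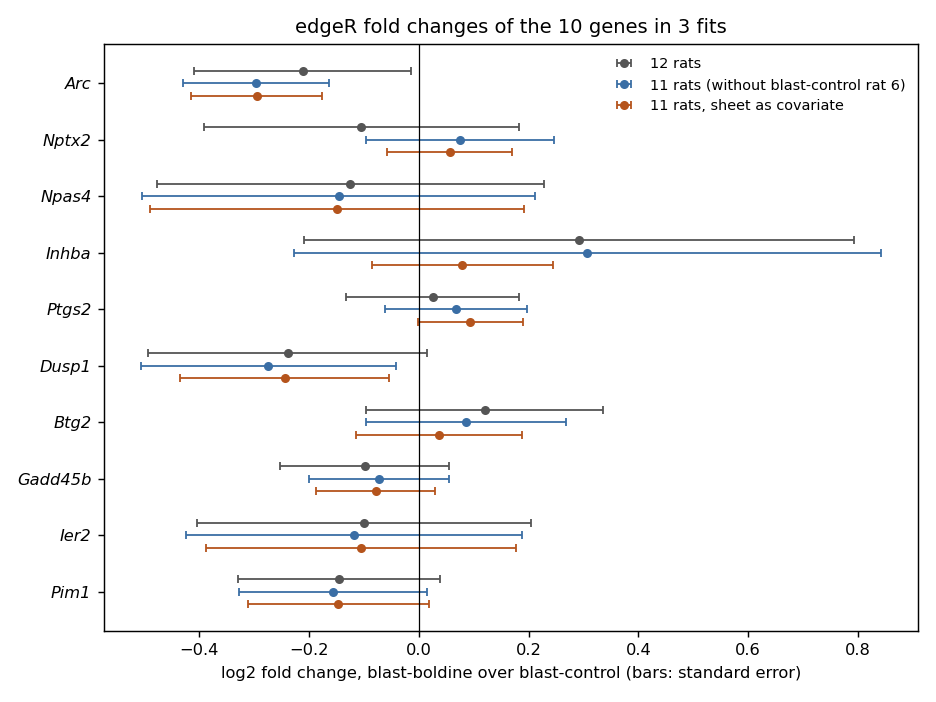
The log2 fold change of each gene, blast-boldine over blast-control, is plotted as a point with its standard error, from edgeR on 12 rats, on 11 rats without blast-control rat 6, and on those 11 rats with the inferred sheet as a covariate. Arc lies near -0.30 in both fits without rat 6, and the standard error of Inhba is much smaller once the sheet is in the fit.

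The 2 synaptic effectors differed in pattern. Arc (chr7:106555973-106559417 in mRatBN7.2, minus strand) stood at 91.7, 97.0, 103, 103, 108 and 124 CPM in the blast-boldine rats and at 97.9, 113, 134, 135 and 162 CPM in the blast-control rats other than rat 6. All 6 blast-boldine rats lay below the control median of 134 CPM, 3 of 5 controls lay above every blast-boldine rat, and the groups overlapped. The means were 104 ± 11.02 CPM (SD, n = 6) and 128 ± 24.5 CPM (SD, n = 5). The fold change without rat 6 was -0.30 on the log2 scale (SE 0.13) with an edgeR unadjusted p of 0.047 and an adjusted p of 1.0. With the inferred sheet as a covariate it was again -0.30 (SE 0.12, edgeR unadjusted p = 0.029, adjusted p = 0.898), where 5.35% of all genes reached an unadjusted p under 0.05. The exact two-sided permutation p of Arc was 0.061 over the 11 rats and 0.060 within sheets. None of the 10 genes had a p under 0.05 in either of these exact permutation tests, where 2.09% and 6.03% of all genes did. Rat 6 held 2 Arc counts where 7.28 would stand for the mean of the other rats. With rat 6 the edgeR fold change was -0.21 (SE 0.20, unadjusted p = 0.303). The exact permutation p was then 0.974, and the difference in mean log2 CPM was positive, at 0.050, against -0.28 over the 11 rats. No fit gave Arc an adjusted p under 0.05.

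Within the sheets, Arc was 97.0 to 103 CPM in the 3 blast-boldine rats and 113 and 162 CPM in the 2 blast-control rats of sheet 2, with no overlap, as in 11.2% of all genes in that direction. In sheet 1 the 3 blast-boldine rats ranged from 91.7 to 124 CPM and the 3 controls from 97.9 to 135 CPM, with overlap. The edgeR interaction of treatment and sheet for Arc was -0.27 (SE 0.24, adjusted p = 0.890).

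Nptx2 (chr12:10037435-10048345, minus strand) ranged from 38.8 to 54.9 CPM with a median of 44.5 in blast-boldine rats, and stood at 30.6, 37.4, 40.2, 43.6 and 62.0 CPM in the 5 deep controls. The blast-boldine values lay inside the control range. The fold change was 0.07 (SE 0.17) on the log2 scale without rat 6 and -0.10 (SE 0.29) with it, and it was also positive with rat 6 kept and blast-control rat 5 left out. Rat 6 held 11 Nptx2 counts, or 174 CPM, with an exact Poisson 95% interval of 87.0 to 312 CPM that covers counting error only and lies above all the other rats.

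The transcription factor Npas4 (chr1:202281958-202286724, minus strand) showed the widest blast-boldine range of the 10 genes after Inhba. It stood at 3.42, 4.23, 8.59, 11.3, 12.7 and 13.0 CPM in blast-boldine rats and at 5.97, 8.96, 9.12, 12.1 and 12.8 CPM in the controls. Rats 12 and 32 lay below every control and rat 17 above every control, while the other 3 blast-boldine rats were inside the control range. The highest blast-boldine rat was 3.79-fold above the lowest, against 2.14-fold among the 5 controls. The fold change was -0.15 (SE 0.36) on the log2 scale without rat 6, with an exact permutation p of 0.528. In the fit of 12 rats it was -0.12 (SE 0.35) and turned positive when either rat 12 or rat 32 was left out.

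**Figure D2:**
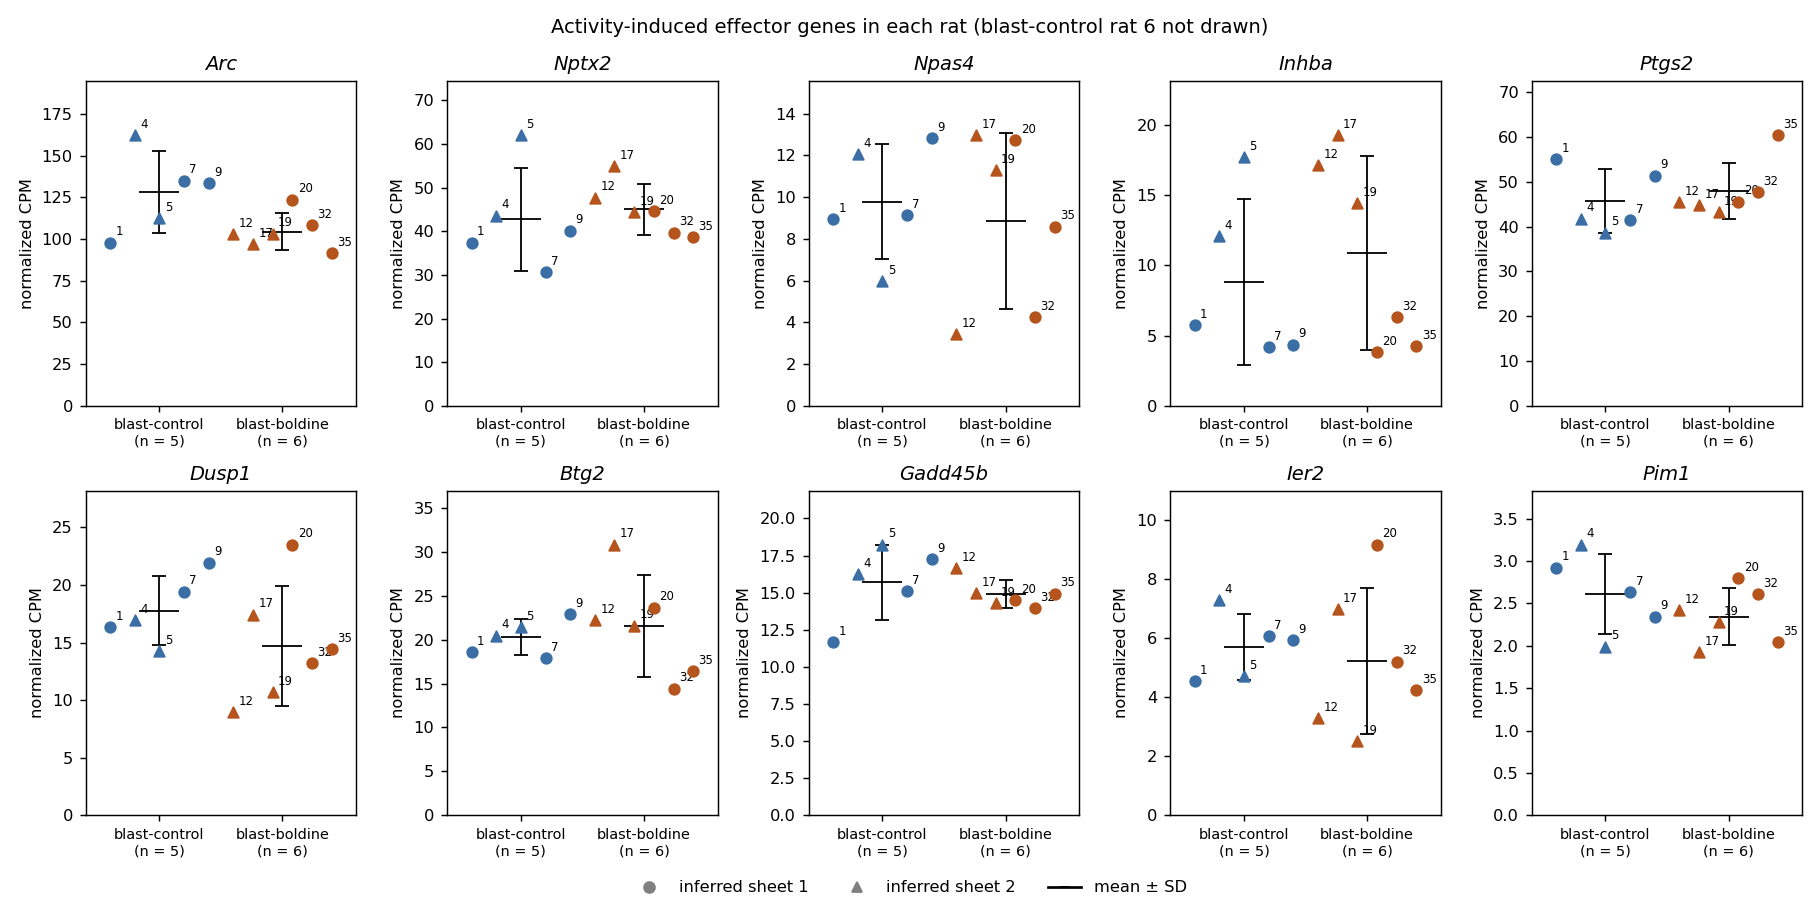
Each panel plots one gene in normalized CPM for each rat, numbered, with circles for inferred sheet 1 and triangles for sheet 2, and the mean ± SD of each group. Inhba separates by sheet in both groups, Arc is lower on average in blast-boldine rats, and Npas4, Dusp1, Btg2 and Ier2 spread more widely in blast-boldine than in blast-control rats.

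The 2 genes of secreted signals, activin A and the prostaglandins, showed no fold change beyond its error. Inhba (chr17:49095912-49108982, minus strand) stood at 3.80, 4.24, 6.33, 14.4, 17.1 and 19.2 CPM in blast-boldine rats and at 4.19, 4.35, 5.75, 12.1 and 17.7 CPM in controls. Both groups thus held a low and a high set of rats with nothing between 6.33 and 12.1 CPM. The 6 low rats were those of inferred sheet 1 and the 5 high rats those of sheet 2, a 3.33-fold difference on average. Because expression chose the sheets, this is a description: 48.8% of genes did not overlap between them, and the absolute log2 difference of Inhba was larger than that of 97.5% of tested genes. The endothelial and microglial marker lists also did not overlap between the sheets. The summed level of the 5 endothelial markers was 120 to 161 CPM in sheet 1 and 228 to 302 CPM in sheet 2, and that of the 5 microglial markers 295 to 334 CPM in sheet 1 and 128 to 206 CPM in sheet 2. Their part in the Inhba difference was not tested. The treatment fold change of Inhba was 0.31 (SE 0.54) on the log2 scale over 11 rats, 0.29 (SE 0.50) over 12 rats and 0.08 (SE 0.17) over 11 rats with the sheet in the fit.

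Ptgs2 (chr13:62164080-62169770, plus strand) ranged from 43.3 to 60.4 CPM with a median of 45.6 in blast-boldine rats, and stood at 38.7, 41.5, 41.8, 51.4 and 55.1 CPM in the controls. All 6 blast-boldine rats were above the control median, 5 of them within 43.3 to 47.8 CPM, and rat 35 was above the other 10 of these rats. The log2 fold change was 0.07 (SE 0.13) over 11 rats and 0.09 (SE 0.10) with the sheet, and the exact permutation p was 0.561. In the fit of 12 rats it was 0.03 (SE 0.16) and turned negative without rat 35. In sheet 2 the 3 blast-boldine rats lay above both controls, as in 11.2% of all genes in that direction, and in sheet 1 the groups overlapped.

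Among the genes of feedback and growth control, Dusp1 (chr10:16680489-16683276, plus strand) stood at 8.96, 10.7, 13.2, 14.4, 17.4 and 23.5 CPM in blast-boldine rats and at 14.3, 16.3, 16.96, 19.4 and 21.9 CPM in controls. Rats 12, 19 and 32 lay below every control and rat 20 above every control, while rats 17 and 35 lay among the controls. The fold change without rat 6 was -0.27 (SE 0.23) on the log2 scale with an edgeR unadjusted p of 0.261, and the exact permutation p was 0.210. With rat 6 the fold change was -0.24 (SE 0.25).

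Btg2 (chr13:45531881-45535642, minus strand) stood at 14.4, 16.4, 21.6, 22.2, 23.6 and 30.8 CPM in blast-boldine rats and only between 17.9 and 22.9 CPM, median 20.5, in the 5 controls. Rats 32 and 35 were below every control and rats 17 and 20 above every control, so that the means hardly differed, at 21.5 ± 5.78 CPM (SD, n = 6) and 20.3 ± 2.04 CPM (SD, n = 5). The log2 fold change was 0.09 (SE 0.18) without rat 6 and 0.12 (SE 0.22) with it. In sheet 2 the 3 blast-boldine rats lay above both controls, at 20.5 and 21.4 CPM, as in 11.2% of all genes in that direction. In sheet 1 the groups overlapped, with means of 18.2 CPM in blast-boldine rats and 19.8 CPM in controls.

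Ier2 (chr19:23494551-23496073, plus strand) stood at 2.51, 3.30, 4.24, 5.21, 6.99 and 9.17 CPM in blast-boldine rats and at 4.55, 4.72, 5.94, 6.06 and 7.28 CPM in controls. Rats 12, 19 and 35 were below every control and rat 20 above every control. The log2 fold change was -0.12 (SE 0.31) without rat 6 and -0.10 (SE 0.30) with it.

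Gadd45b (chr7:8778004-8780033, minus strand) was the gene with the narrowest blast-boldine range, 13.96 to 16.7 CPM with a median of 14.7, and stood at 11.7, 15.1, 16.3, 17.2 and 18.2 CPM in controls. Its blast-boldine rats lay inside the control range, and 5 of 6 were below the control median. The log2 fold change was -0.07 (SE 0.13) without rat 6 and -0.10 (SE 0.15) with it. Blast-control rat 1, the deepest library, was the lowest rat. An exact permutation test without rat 1 but with rat 6, which held 2 Gadd45b counts, gave a p of 0.013. This alternative was chosen after the data were seen. The edgeR fit without rat 1 gave an unadjusted p of 0.205, and the exact permutation p without rat 6 was 0.602.

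Pim1 (chr20:7554921-7559174, plus strand) was the lowest gene of the set, at 1.92 to 2.80 CPM with a median of 2.35 in blast-boldine rats and at 1.99, 2.34, 2.63, 2.92 and 3.19 CPM in controls. The groups overlapped, with 5 of 6 blast-boldine rats below the control median. The log2 fold change was -0.16 (SE 0.17) without rat 6, with an exact permutation p of 0.305, and -0.15 (SE 0.18) with it. For Arc, Dusp1, Gadd45b and Pim1 the fitted fold change was negative in all 21 fits run, for Inhba it was positive in all 21, and for the other 5 genes the sign changed between fits. For Arc, Dusp1, Gadd45b, Pim1 and Inhba the sizes were less stable than the signs. Among these fits the extremes of those genes came from leaving out single rats. Arc gave -0.30 with control rat 6 removed and -0.097 with control rat 4 removed, and Dusp1 gave -0.43 with boldine rat 20 removed and -0.13 with boldine rat 12 removed. Gadd45b gave -0.19 with control rat 1 removed and -0.045 with control rat 5 removed, and Pim1 gave -0.22 with control rat 5 removed and -0.072 with control rat 4 removed. Inhba gave 0.053 with boldine rat 17 removed and 0.70 with control rat 5 removed.

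The spread between rats was not the same for all genes. The SD of log2 CPM was larger among the 6 blast-boldine rats than among the 5 deep controls for 5 of 10 genes. For Inhba, split by sheet, it was 1.03 against 0.92. For Npas4 it was 0.83 against 0.43, for Ier2 0.67 against 0.28, for Dusp1 0.49 against 0.24 and for Btg2 0.39 against 0.14. For Arc, Nptx2, Ptgs2, Gadd45b and Pim1 the controls were the more variable group, with Arc at 0.28 in controls and 0.15 in blast-boldine rats. These differences in spread were seen in the values and were not tested. The SDs were not centred within sheets, and the same count over all genes was not made.

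Taken relative to the mean of the same sheet, the 3 genes with a CRE in the printed windows deviated with the same sign in each blast-boldine rat, a pattern noticed in the values. Dusp1, Btg2 and Ier2 were all above the sheet mean in rats 17 and 20, by 0.34 to 0.68 on the log2 scale. All 3 were below it in rats 12, 19, 32 and 35, down to -0.84 for Ier2 in rat 19, but Btg2 was only at -0.051 in rat 12 and -0.092 in rat 19. The signs matched in 6 of 6 blast-boldine rats and in 2 of 5 controls, rats 1 and 9, where Btg2 in rat 1 stood at -0.0085. In control rat 4 Btg2 stood at -0.17 while Dusp1 stood at 0.36 and Ier2 at 0.66. In control rats 5 and 7 the signs differed through values of Btg2 at -0.11 and -0.061, so the count rests partly on small deviations. Other sets of genes were not counted in this way, so no difference between the groups is read from the count. Of the set, these 3 genes also had the highest correlations with the mean of the other members over the 11 rats. These were 0.85 for Dusp1, 0.77 for Ier2 and 0.57 for Btg2. The CRE is also in other genes of the genome, and no relation between the element and these levels was tested. Npas4 had the sign of these 3 genes in each blast-boldine rat but rat 19, where it stood 0.46 above the sheet mean and Ier2 was lowest. Arc had it in each blast-boldine rat but rat 17, where it was 0.23 below the sheet mean and Dusp1 was 0.40 above it.

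**Figure D3:**
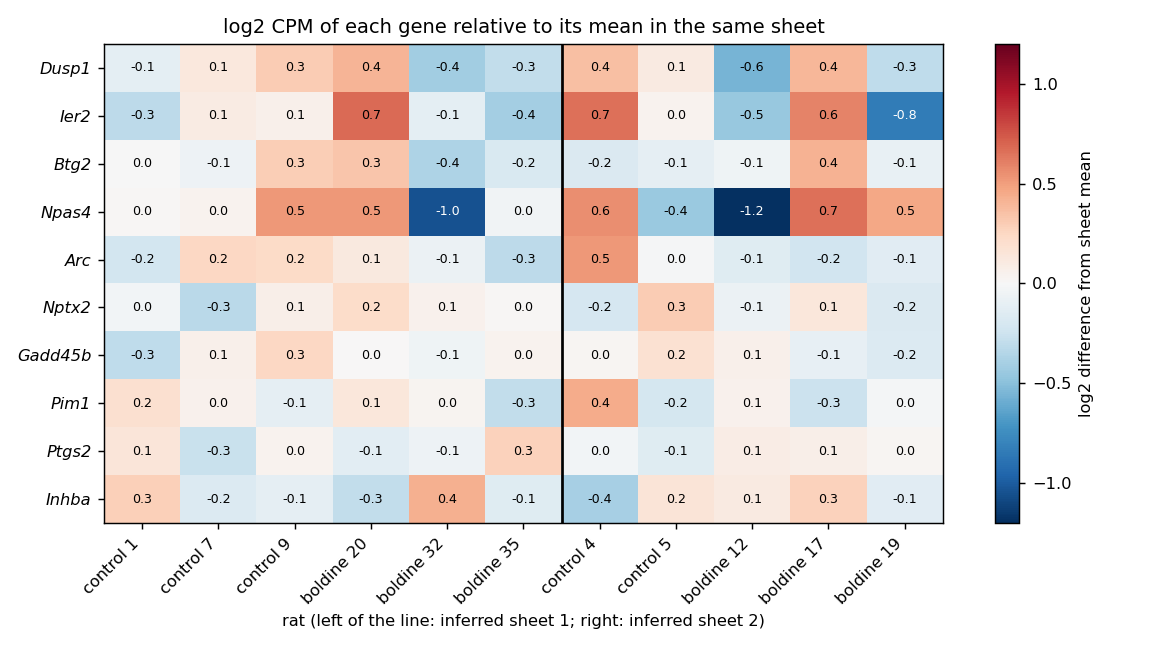
Each cell gives the log2 CPM of a gene in a rat minus the mean of that gene over the rats of the same inferred sheet, with red above and blue below that mean and the black line between the sheets. Dusp1, Ier2 and Btg2 are red in blast-boldine rats 17 and 20 and blue in rats 12, 19, 32 and 35, and Npas4 reaches -1.23 in rat 12.

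Compared per length, the mean level over the 11 rats was highest for Arc, at 38.1 ± 7.06 CPM per kilobase of exon (SD, n = 11), followed by Ptgs2 at 25.8 ± 3.55 and Nptx2 at 23.1 ± 4.52, neighbours within their spread. Gadd45b followed at 11.96 ± 1.41, then Dusp1 at 8.36 ± 2.31 and Btg2 at 8.31 ± 1.72, which lay within their spread, and Npas4 at 3.78 ± 1.42 and Ier2 at 3.58 ± 1.25, which also did. Inhba averaged 6.40 ± 4.01 CPM per kilobase, but this mean pools the 3.33-fold difference between the sheets and fixes no place in the order. Pim1 was lowest at 1.90 ± 0.31 CPM per kilobase. Arc exceeded 77.0% of tested genes per length and Pim1 13.2%.

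The direct partners and paralogs of these genes, such as AMPA receptor subunits, activin receptors, prostaglandin synthases and receptors, MAP kinases and the other Dusp, Btg, Gadd45, Ier and Pim genes, gave the same count of calls. Of 38 tested, 14 were higher and 24 lower in blast-boldine rats, with a median log2 fold change of -0.05, and none had an edgeR unadjusted p under 0.05. Without rat 6 it was 15 higher and 23 lower, with a median of -0.04 and again none under 0.05. The lowest p belonged to Dusp5, a nuclear MAP kinase phosphatase, at -0.55 (SE 0.29, edgeR unadjusted p = 0.081, adjusted p = 1.0), followed by Gadd45g at -0.22 (SE 0.19). Among 37 other activity-induced effectors, 10 were higher and 27 lower, with a median of -0.12, and 2 had an unadjusted p under 0.05, both lower, where 1.07% of all genes passed and 48.7% were lower. Without rat 6 there were 38 tested, 27 lower, with a median of -0.08 and 4 under 0.05 (Sik1, Per1, Trib1 and Nfil3), where 1.4% of all genes passed. The 2 genes over 12 rats were Trib1, a pseudokinase of the tribbles family, at -0.41 (SE 0.17, edgeR unadjusted p = 0.030, adjusted p = 1.0), and Per1, a clock gene also induced by activity, at -0.35 (SE 0.15, edgeR unadjusted p = 0.041, adjusted p = 1.0).

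The activity-regulated transcription factors of the Fos, Jun, Egr and Nr4a families were not called at an adjusted p under 0.05. Of 11 tested, 10 had a negative fold change, with a median of -0.47 on the log2 scale, and 4 had an edgeR unadjusted p under 0.05, namely Nr4a1 (-0.63), Egr4 (-0.75), Egr2 (-1.10) and Fosb (-0.53), where 1.07% of all genes passed. Without rat 6 all 11 were negative, with a median of -0.36, and 4 had an unadjusted p under 0.05. This list was drawn up with results of these data known and is no independent evidence of a direction. The median of the 10 effector genes was -0.10, and the difference between the lists was not tested. Of 9 glucocorticoid targets, a list included because Dusp1 and Per1 also respond to this hormone, 7 were lower and 2 higher with a median of -0.05 and no unadjusted p under 0.05, and without rat 6 the split was 6 and 3 with a median of -0.07. The lowest p values in it were those of Sgk1, a kinase, at -0.17 (SE 0.24), and Ddit4, an inhibitor of mTOR signalling, at -0.19 (SE 0.31). Without rat 6 they were -0.25 and -0.08.

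**Figure D4:**
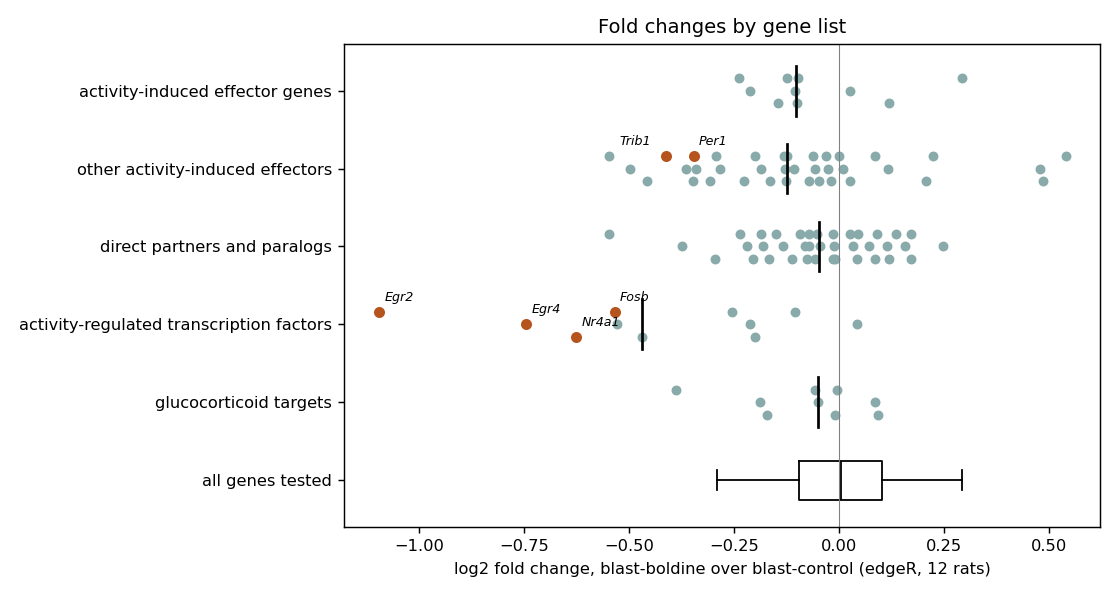
Each point is the log2 fold change of one gene, blast-boldine over blast-control, from edgeR on 12 rats, by gene list, with a black line at the list median and orange points for an unadjusted p under 0.05. The bottom box gives the quartiles of all 12325 genes tested with whiskers from the 5th to the 95th percentile. The effector genes have their median at -0.10 and no orange point, and the transcription factors have theirs at -0.47.

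Cell type markers overlapped between the groups. Over the 11 rats the 7 neuronal markers summed to 3543 to 3845 CPM in blast-boldine rats and 2965 to 4512 CPM in controls. Of the neuronal markers, the lowest p values in edgeR on 12 rats were those of Syt1, with a log2 fold change of -0.83 (SE 0.56) that was 0.15 without rat 6, and Snap25 (-0.14). Among dentate granule markers they were those of Calb1 (0.12, and 0.05 without rat 6) and C1ql2 (0.09). Of the 7 neuronal markers, 3 were higher and 4 lower over 12 rats, with a median of -0.02. Without rat 6, 4 were higher and 3 lower, with a median of 0.008. Of the 3 dentate granule markers, 2 were higher and 1 lower, at -0.02, over 12 rats, and all 3 were higher without rat 6. The 4 markers of CA1 to CA3 pyramidal neurons summed to 506 to 706 CPM in blast-boldine rats and 652 to 856 CPM in controls, and Wfs1 had a log2 fold change of -0.35 (SE 0.17, edgeR unadjusted p = 0.054, adjusted p = 1.0) and Fibcd1 one of -0.04 (-0.10 without rat 6). Wfs1 had an unadjusted p under 0.05 in DESeq2 on 12 rats, where 0.542% of all genes did, and also once edgeR took account of the sheet, where 3.85% did over 12 rats and 5.35% over 11. Without rat 6 and without the sheet it was -0.26 (edgeR unadjusted p = 0.093). Its exact permutation p was 0.110 over the 11 rats and 0.015 within sheets, where 6.03% of all genes were under 0.05. The choroid plexus markers ranged from 7.93 to 1117 CPM in blast-boldine rats and from 13.6 to 1144 CPM in controls, with medians of 415 and 14.3 CPM and with 2 of 5 genes at 0 in at least one rat. Astrocyte, oligodendrocyte, microglial and endothelial sums also overlapped between the groups. Their log2 fold changes of lowest p were those of Gfap (-0.17) and Gja1 (-0.24, and -0.15 without rat 6) for astrocytes, Mag (-0.08) and Mbp (-0.07, and -0.20 without rat 6) for oligodendrocytes, Cx3cr1 (-0.16) and P2ry12 (-0.19) for microglia, Slco1c1 (0.17) and Cdh5 (0.41) for endothelial cells, and Ttr (0.67, SE 1.35) and Otx2 (0.34, SE 1.16) for the choroid plexus. None of these had an unadjusted p under 0.05. Of the 5 astrocyte markers, 4 were lower over 12 rats and 5 without rat 6. Of the 5 oligodendrocyte markers, 3 were lower over 12 rats and 5 without rat 6. All 5 microglial markers were lower in both fits, with medians of -0.15 and -0.21. All 5 endothelial markers were higher in both, with medians of 0.18 and 0.14. With the sheet in the fit and without rat 6, all 5 microglial markers were lower, with a median of -0.12. Of the 5 endothelial markers, 4 were then higher and 1 lower, with a median of 0.09. Of the 5 choroid plexus markers, 4 were higher and 1 lower over 12 rats, and the split was the same without rat 6. The medians were 0.32 and 0.26, and the lowest fold changes -0.34 and -0.37. With the sheet as a covariate all 5 choroid plexus markers were higher, with a median log2 fold change of 0.65, again with no unadjusted p under 0.05. The part of these cell types in the levels of the effector genes was not tested.

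The set did not vary as a unit over the 11 rats. After centring within sheets, the Pearson correlation of a gene with the mean of the other 9 was 0.85 for Dusp1 and 0.77 for Ier2. It was 0.57 for Btg2 and 0.42 for Npas4, but -0.48 for Inhba and -0.40 for Ptgs2. Over all genes above a minimum mean level, the 95th percentile of the correlation with the mean of the set was 0.52. That lay above the value of Npas4, but it used the mean of the whole set rather than of the other 9. Of genes outside all the lists, those most like the mean of the set included Trim13 (r = 0.92), B4galt3 (0.89), Chid1 (0.87) and Kdm4b (0.86). They were picked as the highest of all genes above that minimum level, over 11 rats that share libraries, depth and scaling factors. High values are thus selected for, and none of these genes differed between the groups at an adjusted p under 0.05 in edgeR.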

How the data were processed

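RNA-seq was performed on 12 hippocampal libraries, 6 blast-boldine and 6 blast-control, each from a separate rat. The deposited values are raw counts per gene: per the study's methods, stranded, rRNA-depleted paired-end reads were deduplicated and trimmed, aligned by the authors with STAR 2.7.11b to mRatBN7.2 (rn7) with RefSeq annotation, and counted over exons with featureCounts (Subread 2.0.1), replicates not pooled. The exon length in the table was used only for levels per kilobase. No exon of the 10 genes overlapped another gene's exon.

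Counts were tested with edgeR 4.0.16 (R 4.3.3; quasi-likelihood test, TMM scaling, filterByExpr with a minimum count of 10, Benjamini-Hochberg adjustment over all genes tested), with treatment as the only term. The 10 genes all passed the filter, in 12 and in 11 rats, and 12325 and 12529 genes were tested. Group differences in log2 CPM (prior count 2) were also tested by exact two-sided permutation over 924 assignments of 12 rats, 400 within sheets, 462 of 11 rats and 200 of 11 rats within sheets. The smallest p these allow is 0.00216 or, within sheets, 0.005. Alternatives were DESeq2 1.42.0, limma-voom (limma 3.58.1), other scalings, no filter, the inferred sheet, a prior count of 0.5 and leaving out each rat. The code was tested on simulated data. The members and lists were chosen with earlier results of these data known. All 10 genes are named. From each other list the 2 genes with the lowest edgeR unadjusted p and those under 0.05 (up to 6) are named, and outside the lists the 5 genes most correlated with the set, of which 1 is not reported here. Intervals and floors cover counting error only. Promoter sequences are from RefSeq (GRCr8) and gene positions from the count table (mRatBN7.2). The Arc promoter is not shown.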

Additional observations from a re-analysis of the deposited data

Results flagged for a closer look

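Among the 10 genes, 5 values stood far from the rest of their group of 6 rats, with a gap to the nearest rat that took up most of the group's range. The cut-off is that of Dixon's gap test, set to mark about 1 in 20 groups by chance. This rate was not measured in these data. The first 4 belong to the very shallow library of blast-control rat 6: Nptx2 at 174 CPM (11 counts), Gadd45b at 31.7 CPM (2 counts), and Dusp1 and Btg2 at 0 CPM (0 counts), where 1.02 and 1.32 counts would stand for the mean of the other rats. The fifth was Ptgs2 at 60.2 CPM in blast-boldine rat 35, a library of 18946217 counts. No gene of the set had an interaction of treatment and sheet at an adjusted p under 0.05 in edgeR.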

How the results depend on the processing

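No gene of the set was called at an adjusted p under 0.05 in any alternative run. At an unadjusted p under 0.05, 0 of the 10 genes passed over 12 rats, and also 0 with the sheet in that fit. Without blast-control rat 6 it was 1, Arc, in edgeR, in edgeR with the sheet and in DESeq2 with the sheet. Leaving out each rat in turn gave 0 to 1. Among partners and paralogs the count was 0 and, leaving out each rat, 0 to 1. Among other effectors it was 2, then 1 with DESeq2, 5 with the sheet, 7 with the sheet and without rat 6, 6 with DESeq2, the sheet and no rat 6, and 0 to 5 leaving out each rat. Among transcription factors it was 4, then 7 in each of these 3 sheet settings, and 2 to 5 leaving out each rat, the 2 without blast-control rat 5. The share of all genes under 0.05 was 1.07% over 12 rats, 0.542% with DESeq2, 3.85% with the sheet, 5.35% with the sheet and without rat 6, and 4.69% with DESeq2, the sheet and no rat 6. The cause of these shifts was not tested. The fold change of Nptx2 (-0.10 over 12 rats) was 0.10 with limma-voom, 0.0091 with the sheet, 0.056 with the sheet and without rat 6, 0.058 with DESeq2, the sheet and no rat 6, and -0.24 to 0.075 leaving out each rat (positive without blast-control rat 5 or 6). Leaving out each rat gave -0.26 to 0.045 for Npas4 (positive without blast-boldine rat 12 or 32), -0.049 to 0.093 for Ptgs2 (negative without blast-boldine rat 35 or blast-control rat 4, 5 or 7), -0.0090 to 0.21 for Btg2 (negative without blast-boldine rat 17) and -0.35 to 0.040 for Ier2 (positive without blast-boldine rat 12 or 19 or blast-control rat 4). In the permutation tests rat 6 enters with a count of 0 for 5 genes and with 1 to 11 counts for the other 5, and 7 differences in mean log2 CPM changed sign without it, each given over 11 rats and then within sheets: Arc -0.28 and -0.30, Nptx2 0.10 and 0.050, Npas4 -0.26 and -0.24, Ptgs2 0.072 and 0.10, Dusp1 -0.33 and -0.30, Ier2 -0.23 and -0.24, and Pim1 -0.14 and -0.14. Without blast-control rat 1, chosen after seeing the data, that of Inhba became -0.0039 and Gadd45b passed an exact permutation p of 0.05 (p = 0.013). The edgeR unadjusted p of Gadd45b without that rat was 0.205. No other alternative moved a call of these 10 genes. No paired analysis was possible because the groups share no replicate numbers. Depth limits the comparison through rat 6, where 3 counts equal 47.5 CPM, above the mean of every gene of the set but Arc in the other 11 rats. In those rats 3 counts equal 0.066 to 0.307 CPM.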
